A study of Mus musculus with 4 samples.

Results

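The 9 genes described here are the 4 members of the Eya family (Eya1, Eya2, Eya3 and Eya4) and 5 Six-family homeobox genes (Six2, Six3, Six4, Six5 and Six6). They were chosen by name, out of 21951 protein-coding genes in the GENCODE M21 annotation of the mouse genome build mm10. For each gene, the places where Eya1 had been located by sequencing of immunoprecipitated chromatin (ChIP-seq) were read at its start sites, in its body and in the surrounding 100 kb.

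Eya1 was profiled in kidneys of E13.5 mouse embryos that carried the Eya1 HA-FLAG knockin allele, kept on a mixed C57BL/6J and 129/Sv background. The tagged protein was captured with anti-FLAG M2 beads, and each assay pooled 80 kidneys. The series comprised 4 samples, namely 2 Eya1 ChIP replicates, 1 input and 1 IgG control. The same protocol is given for the Eya1 libraries and the controls, knockin kidneys included, and the labels describe the samples as total RNA although the measured molecule was immunoprecipitated DNA. A whole kidney holds nephron progenitors, ureteric epithelium and stroma, so a peak cannot be assigned to a cell type, and peak positions gave no means to check tissue markers. The controls were not analysed here, and nothing says whether the replicates were separate pools of embryos.

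Eya proteins are transcriptional coactivators and phosphatases that carry no DNA-binding domain of their own. Six-family proteins are homeodomain transcription factors that bind DNA and recruit Eya proteins to it. In the embryonic kidney, Eya1 and Six2 are known for maintaining the nephron progenitors, the cells from which nephrons form. Whether peaks were listed at the genes of this network is the question addressed here.

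Peaks of replicate 1 had a median width of 1069 bp (168 to 5380 bp) and those of replicate 2 of 188 bp (117 to 2699 bp). Within 1 kb of an annotated transcription start site (TSS) of any gene lay 4041 peaks of replicate 1 (94.5% of its list) and 3545 of replicate 2 (84.9%). The lists gave only positions, with no read count, score or p-value, so the depth behind a peak is unknown. With a single immunoprecipitated group, no test between groups was possible, and the counts below are descriptions set beside the same count over all protein-coding genes.

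The sequences that the Eya1 result turns on are shown first. Replicate 1 listed short peaks over coding exons of Eya1 itself, and 2 of them are printed 5′ to 3′ on the minus strand, the strand of Eya1, with coding bases in capitals. They lay at chr1:14179428-14179633 and chr1:14184298-14184557. A coding segment that lay beside the second peak but in none is printed for contrast with 20 intronic bases on either side, at chr1:14184606-14184704 (segment 13).
Eya1 206-bp peak: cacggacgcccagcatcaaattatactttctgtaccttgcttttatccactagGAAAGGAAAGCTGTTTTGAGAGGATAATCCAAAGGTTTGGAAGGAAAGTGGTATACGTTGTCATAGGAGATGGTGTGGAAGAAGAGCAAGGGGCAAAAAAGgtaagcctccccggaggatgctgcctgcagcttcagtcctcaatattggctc
Eya1 260-bp peak: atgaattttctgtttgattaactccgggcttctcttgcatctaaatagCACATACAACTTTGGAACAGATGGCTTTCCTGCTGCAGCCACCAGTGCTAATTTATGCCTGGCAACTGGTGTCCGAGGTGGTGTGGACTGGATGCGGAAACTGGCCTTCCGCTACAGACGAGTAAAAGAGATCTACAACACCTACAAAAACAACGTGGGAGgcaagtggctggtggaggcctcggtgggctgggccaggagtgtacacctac
Eya1 segment 13, in no peak: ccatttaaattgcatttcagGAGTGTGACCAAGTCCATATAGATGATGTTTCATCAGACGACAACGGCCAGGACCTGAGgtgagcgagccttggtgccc
The capitals sit near the middle of both peaks with a border of intron on both sides.

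The replicate 2 peaks at Six4 and Six5 are shown next, with each CpG in capitals. The Six4 peak is on the minus strand at chr12:73112712-73112837 and lies whole in coding sequence. The Six5 peaks are on the plus strand, and the coding part of the first (chr7:19094637-19094773, beginning at the start codon) and the whole of the second (chr7:19095051-19095219) are given.
Six4 replicate 2 peak: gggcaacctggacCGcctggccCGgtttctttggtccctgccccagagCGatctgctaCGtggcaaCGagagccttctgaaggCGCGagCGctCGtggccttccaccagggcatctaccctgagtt
Six5 replicate 2 peak, first: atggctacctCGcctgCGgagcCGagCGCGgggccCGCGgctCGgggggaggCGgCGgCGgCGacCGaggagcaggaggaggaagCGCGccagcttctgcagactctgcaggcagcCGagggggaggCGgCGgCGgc
Six5 replicate 2 peak, second: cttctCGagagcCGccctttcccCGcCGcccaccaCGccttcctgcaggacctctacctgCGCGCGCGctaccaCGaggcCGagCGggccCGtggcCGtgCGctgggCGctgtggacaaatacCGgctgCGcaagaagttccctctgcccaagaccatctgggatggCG
The ratio of observed to expected CpG in these 3 sequences was 0.694, 0.962 and 0.959, above the 0.229 to 0.669 of the short Eya1 exon peaks. The 3 come from peaks within 1 kb of a TSS, and such replicate 2 peaks had a median ratio of 0.849. Most of the short Eya1 peaks lay farther from any TSS, and replicate 1 peaks more than 1 kb from every TSS had a median of 0.296.

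The 9 genes divided into those with a peak of their own and those with none. A peak lay within 1 kb of a TSS of 4 of the 9, namely Eya1, Six2, Six4 and Six5, in either list, beside 23.5% of all protein-coding genes. In replicate 1 the count was 3 (Eya1, Six2 and Six5; background 20.2%), and in replicate 2 it was 2 (Six4 and Six5; background 14.7%). Six5 was the 1 gene with a promoter peak in both lists, where the background was 11.5%. Without the exon peaks of Eya1, which are described below and may be an artefact, 3 of 9 genes had a promoter peak. Six2 stayed in this count. Its replicate 1 peaks covered 100% of its coding bases, 16.5% of its non-coding exon bases and 37.1% of its intron. Whether they share an origin with the Eya1 exon peaks was not tested.

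The same 4 genes had a peak within the gene body, beside 23.9% of protein-coding genes in either list. The gene-body count was 3 in replicate 1 (background 20.4%) and 2 in replicate 2 (background 14.5%). Gene-body peaks more than 1 kb from every TSS of the gene were found at Eya1 and Six2, 2 of 9, where 1.97% of protein-coding genes had one in either list. Leaving out the Eya1 exon peaks, Six2 was the 1 gene left in this class, through the peak that held the coding part of its last exon.

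**Figure D1:**
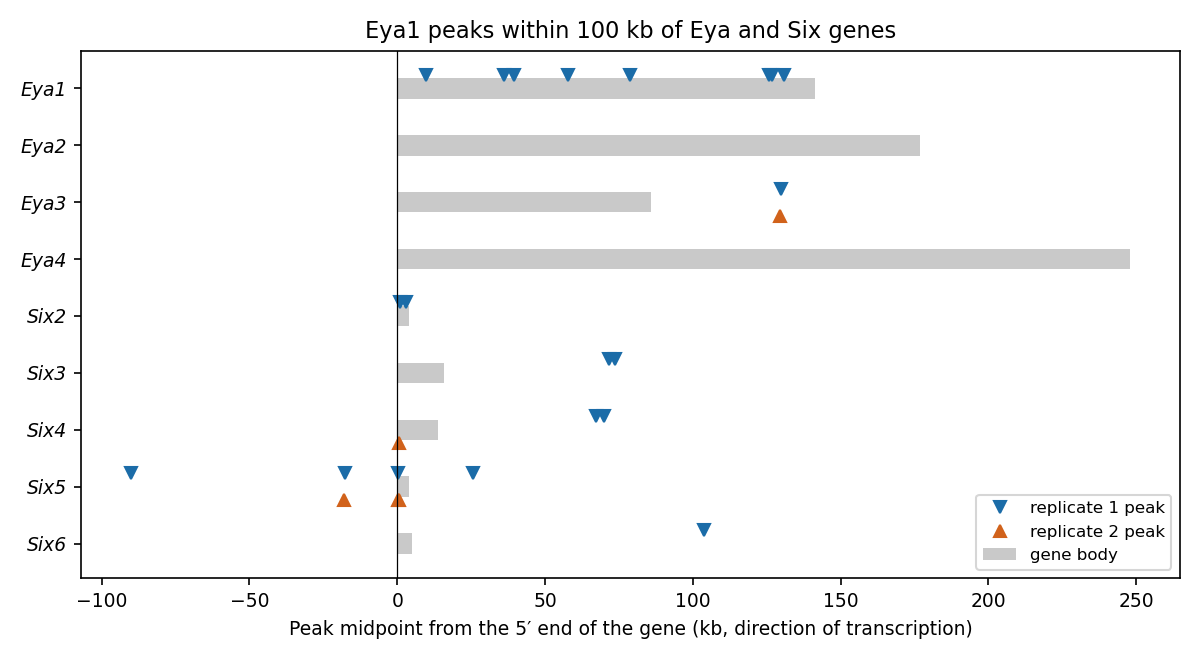
Midpoints of Eya1 peaks along each gene (x axis, kb from the 5′ end of the gene in the direction of transcription; grey bars, gene bodies; downward triangles, replicate 1; upward triangles, replicate 2). The 8 replicate 1 peaks of Eya1 spread along its body, both replicates have a peak by the 5′ end of Six5, and Eya2 and Eya4 have none.

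Within 100 kb of the gene body, 7 of the 9 genes had a peak in either list, beside 60.2% of protein-coding genes. All 7 had one in replicate 1 (background 54.9%), and 3 had one in replicate 2, namely Eya3, Six4 and Six5 (background 48.4%). Eya2 and Eya4 had none in either list. Counted once each, the peaks within 100 kb of the 9 genes numbered 17 in replicate 1 and 5 in replicate 2. Of the 17, 8 were the Eya1 exon peaks, and without them 6 of the 9 genes had a peak within 100 kb and 3 had one in the gene body.

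Eya1 (chr1:14168954-14310235, minus strand, 141 kb) encodes the protein that was immunoprecipitated. Replicate 1 listed 8 peaks in the gene and replicate 2 listed none, its nearest peak being 579 kb away. From the 5′ end of the gene, the replicate 1 peaks were 4931, 253, 244, 317, 244, 260, 442 and 206 bp wide. The 7 short ones were narrow for their list, with no more than 6.01% of replicate 1 peaks as narrow as any of them, and the 4931-bp peak was at the 99.9th percentile. Of the 8, a single 244-bp peak (chr1:14231359-14231602) counted as a promoter peak. It covered the start of an internal transcript 78.8 kb from the 5′ end of the gene, in a coding exon, whereas no peak lay within 1 kb of the 5′ end itself.

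Each of the 7 short peaks held coding sequence whole, with little around it. Coding bases made up 49.0 to 61.9% of a peak, and the edges lay 48 to 79 bp outside the coding sequence (median 51.5 bp over the 14 edges). The 442-bp peak held segments 15 and 16 with the intron between them, so the 7 peaks held 8 coding segments. The 4931-bp peak (chr1:14298006-14302936) differed, since it began 43 bp upstream of segment 2 and ran 4764 bp past that segment downstream. Annotated exon sequence made up 1733 bp of it, of which 124 bp were coding.

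**Figure D2:**
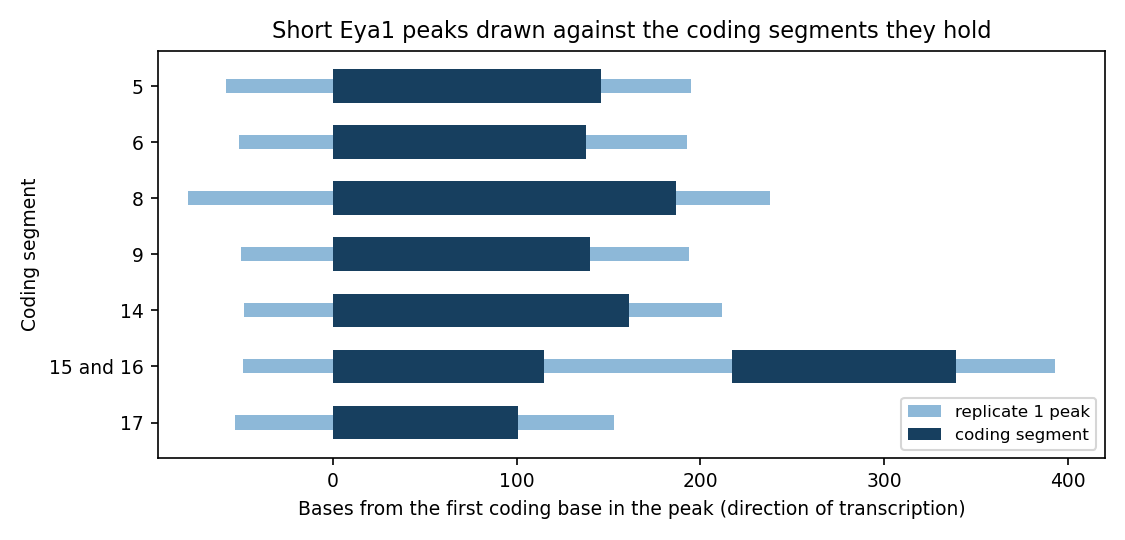
The 7 short replicate 1 peaks in Eya1 (light bars) drawn against the coding segments they hold (dark bars), aligned at the first coding base (x axis, bases in the direction of transcription; rows, segment numbers). The light border on the outer sides is 48 to 79 bp in all 7.

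In replicate 1, every coding segment of Eya1 inside a peak was longer than every segment in none. This split was picked out once the values were known, and its origin was not tested. No peak of the replicate 1 list was narrower than 168 bp. The coding sequence of all Eya1 transcripts merged into 18 segments, and 9 lay whole in replicate 1 peaks and 9 in none. The 9 inside peaks were 101 to 187 bp long (median 138 bp) and the 9 outside were 25 to 99 bp long (median 78 bp), so the lengths did not overlap. Position in the gene did not part them in this way. Segment 13, of 59 bp, lay 69 bp from the 260-bp peak that held segment 14, and segment 7, of 83 bp, lay 327 bp from the 317-bp peak that held segment 8. The GC content of the segments overlapped between the classes, at 36.1 to 63.5% (median 50.7%) inside peaks and 41.1 to 54.8% (median 44.9%) outside. The ratio of observed to expected CpG also overlapped, at 0.0877 to 0.743 inside and 0 to 0.900 outside.

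**Figure D3:**
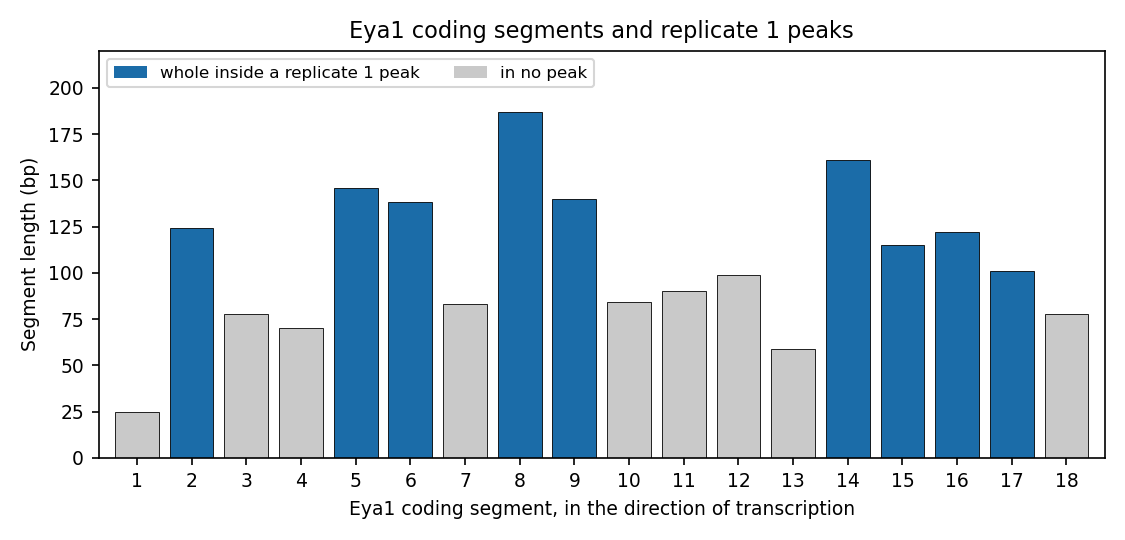
Length of the 18 merged coding segments of Eya1 (y axis, bp) in the direction of transcription (x axis). Segments held whole by a replicate 1 peak (blue) are 101 bp or longer and those in no peak (grey) are 99 bp or shorter.

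By base count, 64.9% of the 1900 coding bases of Eya1 lay in replicate 1 peaks, compared with 3.04% of its 133 kb of introns. Of its 5908 non-coding exon bases, 27.2% did, all of them in the 4931-bp peak. The median CpG ratio of the short peaks was below that of their whole list and above that of its peaks away from every TSS. Their GC content was 46.3 to 51.7% (median 49.3%) and their CpG ratio 0.229 to 0.669 (median 0.368). Over all replicate 1 peaks the medians were 62.8% and 0.774, and over the 236 replicate 1 peaks more than 1 kb from every TSS they were 52.4% and 0.296. The origin of the exon peaks was not tested, and the counts over the 9 genes are therefore given also without them.

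The genes most like Eya1 in this respect were sought over all protein-coding genes, by the number of exons held whole by peaks more than 1 kb from every TSS. In replicate 1, 8 of 21951 genes had any such exon and in replicate 2 none did. The leading 3 were Smarcc2, a subunit of the BAF chromatin remodelling complex, with 9 exons in 6 peaks, Eya1 with 5 exons in 5 peaks, and Sorbs3, an adaptor protein of cell adhesions, with 2 exons in 1 peak. Length did not part the segments of Smarcc2 in the same way. Of its 30 coding segments, 10 lay whole in peaks and were 76 to 382 bp long, and the 20 in no peak were 27 to 426 bp long.

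Peaks bounded by coding sequence, with both ends 30 to 90 bp outside a coding segment, were also counted, by limits set after the Eya1 edges had been seen. Away from every TSS, 9 of the 236 such replicate 1 peaks met this limit, and they lay in 4 genes: 5 in Eya1, 2 in Smarcc2, and 1 each in Myc and Mycn. None of the 630 replicate 2 peaks away from every TSS did. Over all peaks, those near a TSS included, the order was the other way, with 19 in replicate 1 and 68 in replicate 2. Myc and Mycn encode transcription factors that promote cell growth and division. The Myc peak (chr15:61989293-61989955, 663 bp) held the 560 coding bases of the last exon with edges of 53 and 50 bp. The Mycn peak (chr12:12936968-12937651, 684 bp) held 602 coding bases with edges of 41 and 41 bp.

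The other Eya genes, which encode the paralogous coactivators, had no peak of their own. Eya2 (chr2:165595032-165771727, 177 kb) was 207 kb from the nearest peak in both replicate 1 and replicate 2. Eya4 (chr10:23102963-23350786, 248 kb) was 282 kb from the nearest peak in replicate 1 and 283 kb in replicate 2. Eya3 (chr4:132638987-132724765, 85.8 kb) had 1 peak within 100 kb in each list. Both lay at the TSS of Rpa2, which encodes a subunit of the single-strand DNA-binding complex RPA, 43.5 kb beyond the 3′ end of Eya3. The replicate 1 peak there was 908 bp wide and the replicate 2 peak 149 bp, and they overlapped.

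Six2 (chr17:85684277-85688274, minus strand) encodes the homeodomain factor of the nephron progenitors. Replicate 1 listed 2 peaks in it, and replicate 2 listed none within 479 kb. The promoter peak (chr17:85686860-85687996) was 1137 bp wide, at the 52.9th percentile of replicate 1 promoter peaks, and began 258 bp downstream of the nearest TSS. It held the whole coding part of exon 1 (560 bp), 44 bp upstream of it and 533 bp of the intron. The other (chr17:85685027-85685677) was 651 bp wide and held the coding part of the last exon (328 bp) with edges of 159 and 164 bp. Together the 2 peaks covered 100% of the 888 coding bases of Six2, 16.5% of its non-coding exon bases and 37.1% of its intron. Their GC contents, 61.9 and 63.3%, were above those of the short Eya1 exon peaks. The CpG ratio was 0.869 in the promoter peak and 0.661 in the other, the latter within the range of the short Eya1 exon peaks.

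Six3 (chr17:85613608-85629302), a homeodomain factor of the forebrain and eye, lies 55.0 kb from Six2. It had no peak within 1 kb of a TSS or in its body, and the peaks within 100 kb of it were those of Six2. In replicate 2 its nearest peak was 538 kb away.

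Six4 (chr12:73099609-73113456, minus strand), a homeodomain factor expressed with its relatives in muscle and kidney, had a promoter peak in replicate 2 alone. This peak, printed above, was 126 bp wide, at the 12.5th percentile of replicate 2 promoter peaks. It lay 588 bp from the nearest TSS inside the first coding segment of 842 bp, with a GC content of 64.3% and a CpG ratio of 0.694. Replicate 1 listed 2 peaks within 100 kb of Six4, of 463 and 658 bp, at 69.5 and 67.0 kb from its nearest TSS, both within 1 kb of a start site of a neighbouring gene. Six6 (chr12:72939892-72944899), a homeodomain factor of the eye, had no peak of its own, and the 463-bp peak, 98.5 kb from its 3′ end, was the 1 peak within 100 kb of it. In replicate 2 the nearest peak to Six6 was 168 kb away.

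Six5 (chr7:19094594-19098549, plus strand), a homeodomain factor encoded beside the myotonic dystrophy kinase gene, was the 1 gene of the 9 found in both lists. The replicate 1 peak (chr7:19093300-19096390) was 3091 bp wide, from 1294 bp before to 1796 bp after the TSS. It stood at the 99.0th percentile of promoter peak widths in its list. The replicate 2 peaks, printed above, were 167 and 169 bp wide, at the 36.1st and 37.0th percentiles of theirs, and began 13 and 457 bp after the TSS. Both lay inside the replicate 1 peak. The replicate 1 peak covered 43.6% of the 2157 coding bases of Six5 and 85.7% of its introns. The replicate 2 peaks covered 14.2% of coding bases and no intron, and coding bases made up 82.0 and 100% of them.

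**Figure D4:**
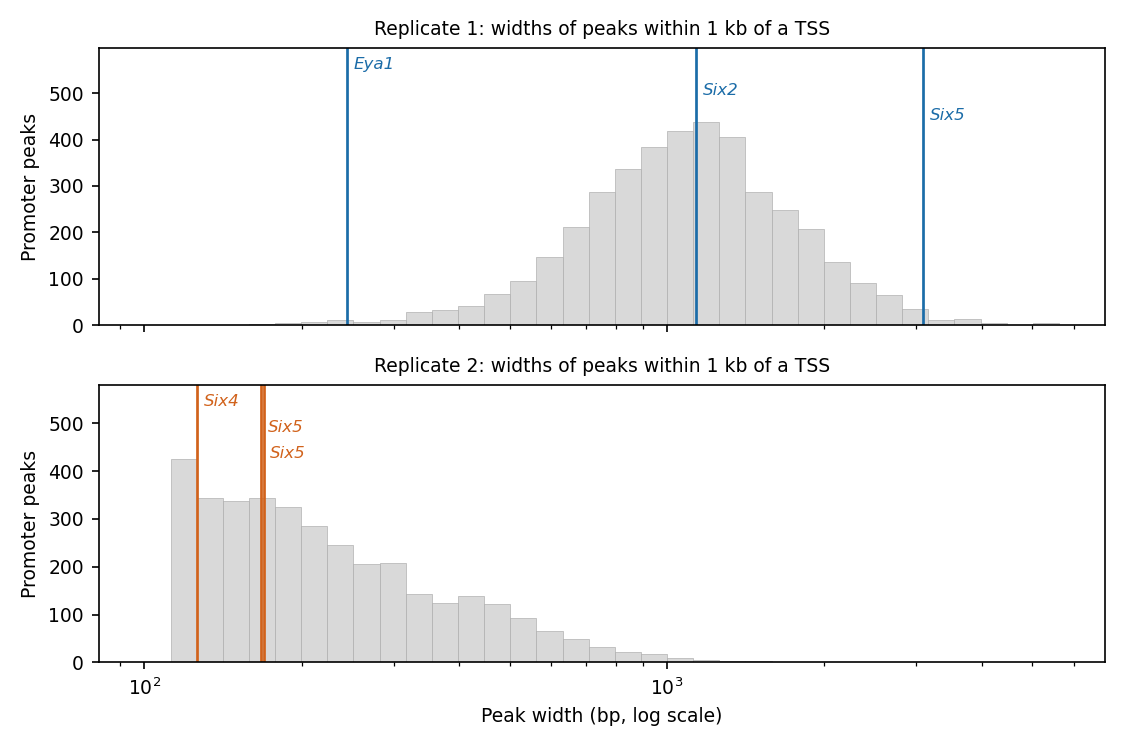
Widths of all peaks within 1 kb of a TSS (grey histograms; x axis, bp on a log scale; y axis, number of peaks) for replicate 1 (top) and replicate 2 (bottom), with lines at the promoter peaks of the Eya-family and Six-family genes. Six5 stands at the 99.0th percentile in replicate 1, Six2 near the middle, and the Eya1 exon peak at the lower end.

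The neighbourhood of Six5 held further peaks, all at start sites of other genes. Replicate 1 peaks lay at the TSS of Irf2bp1 (1345 bp wide, 89.4 kb away), Dmwd (972 bp, 17.1 kb away) and Fbxo46 (635 bp, 25.2 kb away), and replicate 2 had a 214-bp peak at Dmwd alone, 17.8 kb away. Leaving out peaks at start sites of other protein-coding genes, 5 of the 9 genes still had a peak within 100 kb, namely Eya1, Six2, Six3, Six4 and Six5, of which Six3 was left with the 651-bp peak in Six2.

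Promoter sequences of 7 of the 9 genes, 250 bases before to 50 after the start, were taken from RefSeq (GRCm38.p6), leaving Eya1 and Eya2. The Six5 promoter lay whole inside the replicate 1 peak, and its 250 bases before the RefSeq start (chr7:19094294-19094543, plus strand) are printed with the GC box in capitals.
Six5 promoter: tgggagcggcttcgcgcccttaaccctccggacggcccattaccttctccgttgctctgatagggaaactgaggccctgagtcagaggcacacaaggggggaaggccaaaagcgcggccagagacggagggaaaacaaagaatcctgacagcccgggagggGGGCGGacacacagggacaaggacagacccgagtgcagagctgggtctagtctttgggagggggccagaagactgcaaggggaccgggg
The CpG ratio of the Six5 promoter was 0.559, and that of the Six2 promoter, which its peak did not reach, was 1.13, at the 98.7th percentile of 32851 promoters. The Eya3, Six3 and Six6 promoters, with no peak, had ratios of 0.955, 0.747 and 0.689, those of Eya4 had 0.918 or more, and the median over all promoters was 0.384. Both Six4 promoter sequences, from a gene whose replicate 2 peak lay downstream in coding sequence, had ratios of 0.713 and 0.640.

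Recognition sequences were searched on both strands in the 14 peaks at start sites or in bodies of the 9 genes, 11 in replicate 1 and 3 in replicate 2. RE1, the 17-bp element of the repressor REST, was found with at most 2 mismatches in 1 of the 11, the 442-bp Eya1 exon peak, at chr1:14183405-14183421. Over all peaks the share was 17.5% in replicate 1 and 17.4% in replicate 2. The same element was found in 2.84% of RefSeq promoters. Among the 7 genes with a RefSeq promoter it was found at Eya4 and Six4.

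The MEF3 element that Six-family proteins recognise, TCAGGTTTC with at most 1 mismatch, was found in 2 of the 11 replicate 1 peaks, the 4931-bp Eya1 peak and the Six5 peak, beside 22.7% of all replicate 1 peaks. It was in none of the 3 replicate 2 peaks, beside 3.59% of the list, and in 8.74% of promoters. Another core sequence of Six-family proteins, TGATAC, was in none of the 14 peaks, beside 9.63% of replicate 1 peaks, 0.982% of replicate 2 peaks and 5.46% of promoters. The E-box CACGTG, which Myc proteins bind, was in 1 of the 11 (the 244-bp Eya1 peak at chr1:14231359-14231602) and none of the 3, beside 22.2% and 2.71% of the lists and 7.15% of promoters.

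Of the common promoter elements, the GC box GGGCGG was in 3 of 3 replicate 1 peaks at Six2 and Six5, in 0 of the 8 Eya1 exon peaks and in 1 of 3 replicate 2 peaks, the second Six5 peak. It was in 89.2% of all replicate 1 peaks, 47.8% of replicate 2 peaks and 35.7% of promoters. The CCAAT box CCAAT was in 4 of the 8 Eya1 exon peaks, in 2 of the 3 replicate 1 peaks at Six2 and Six5 and in none of the 3 replicate 2 peaks, beside 61.3% and 11.8% of the lists and 37.4% of promoters. A longer peak has more room for a match, and the letters alone do not show that a factor was bound.

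A list of 22 partner and network genes was read in the same way, comprising nuclear partners and corepressors of Eya and Six-family proteins, Myc genes, chromatin genes and regulators of early kidney development. A promoter peak was found at 13 of the 22 in either list, 12 in replicate 1, 6 in replicate 2 and 5 in both, against the backgrounds of 23.5, 20.2, 14.7 and 11.5% given above for all protein-coding genes. The list was drawn up with the text of the study and earlier results known, so the count is not independent of them.

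The Groucho-type corepressors, which some Six-family proteins recruit, had promoter peaks at 4 of 5 genes in either list. Over all protein-coding genes the share was 23.5%, and these 5 belong to the list drawn up with earlier results known. Tle1 had a 2855-bp peak in replicate 1 and a 446-bp peak in replicate 2. Tle3 had a 2585-bp peak in replicate 1 and peaks of 257, 127 and 205 bp in replicate 2. Aes, a short family member, had a 1939-bp peak in replicate 1 and peaks of 196 and 155 bp in replicate 2. Tle4 had a 961-bp peak in replicate 1 alone, and Tle2 had none. The nearest peaks to Tle2, 13.0 kb away in replicate 1 and 13.8 kb in replicate 2, were promoter peaks of Aes. Of the other partners, Dach1, a nuclear cofactor, had a 2766-bp peak in replicate 1 alone, while Dach2 was 7093 kb from the nearest replicate 1 peak. Sobp, a Six-binding protein, had no promoter peak and was 46.2 kb from a replicate 1 peak and 240 kb from a replicate 2 peak.

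Among chromatin genes, Rest, the repressor that binds RE1, had peaks of 1692 and 980 bp in replicates 1 and 2, the second at the 99.4th percentile of replicate 2 promoter peaks. H2afx, which encodes the histone variant whose phosphotyrosine is an Eya substrate, had 2 promoter peaks in each list, of 368 and 1159 bp in replicate 1 and of 334 and 177 bp in replicate 2. Smarca4, the ATPase of the BAF complex, had an 815-bp peak in replicate 1 alone. Myc and Mycn had promoter peaks of 2997 and 1665 bp in replicate 1 alone. Both genes are included in the promoter count above. Their replicate 1 promoter and gene-body peaks together covered 100% of the coding bases of each gene. They covered 69.1% (Myc) and 13.8% (Mycn) of the non-coding exon bases.

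Of the kidney regulators, Sall1, a zinc-finger factor of the progenitors, had a promoter peak of 3742 bp in replicate 1 and a gene-body peak in replicate 2. Gdnf, the ligand that draws out the ureteric bud, had a 2441-bp peak in replicate 1, and Hoxa11 a 210-bp peak in replicate 2. Pax2, Pax8, Osr1, Wt1, Cited1 and Hoxd11, transcriptional regulators of the metanephric mesenchyme and nephron lineage, had no peak within 1 kb of a TSS in either list. Of these, Pax8, Osr1, Wt1 and Cited1 also had none within 100 kb, at distances from 225 kb (Wt1) to 817 kb (Cited1). Pax2 had peaks within 100 kb in both lists, the nearest 92.8 kb away in replicate 1 and 63.4 kb in replicate 2. Hoxd11 had a gene-body peak in replicate 2. The genes with peaks in both lists were wider in replicate 1 throughout, as were the lists as a whole.

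**Figure D5:**
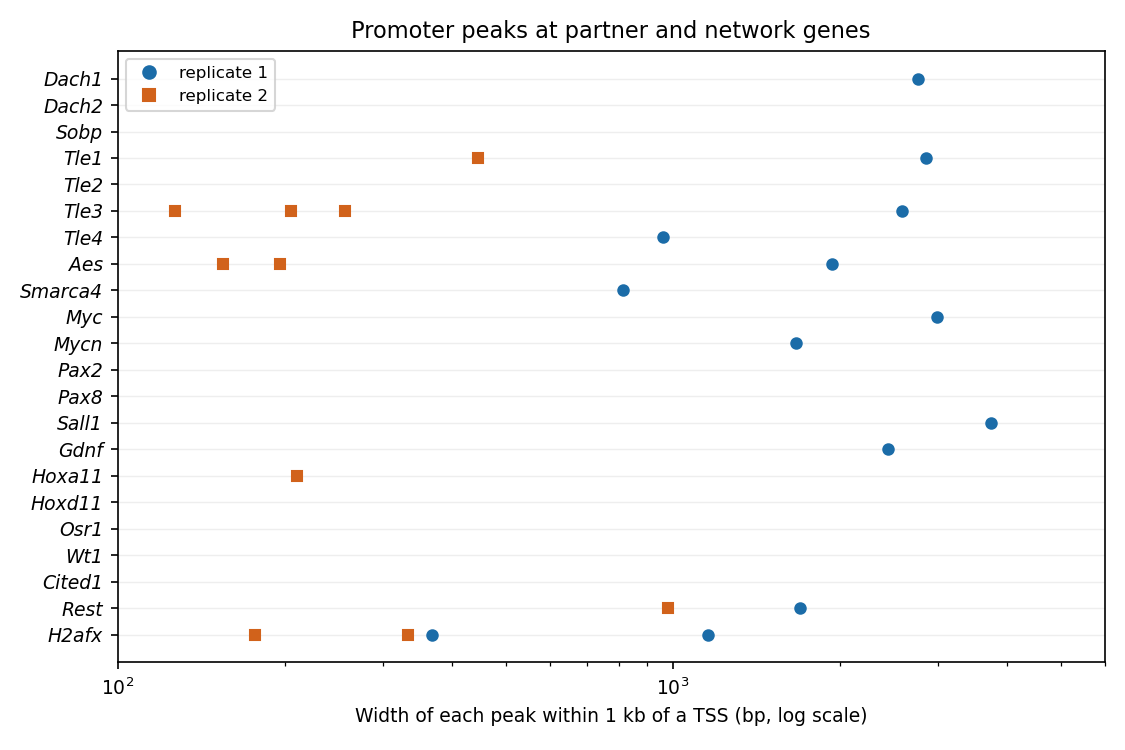
Widths of peaks within 1 kb of a TSS (x axis, bp on a log scale) at 22 partner and network genes (rows), with circles for replicate 1 and squares for replicate 2. Replicate 1 peaks run from 368 bp (H2afx) to 3742 bp (Sall1) and replicate 2 peaks from 127 bp (Tle3) to 980 bp (Rest).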

How the data were processed

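ChIP-seq was performed on kidneys of Eya1 HA-FLAG knockin embryos in 2 Eya1 replicates, with 1 input and 1 IgG control, which were not analysed here. Per their methods, the authors mapped reads with Bowtie and called peaks with MACS against input or IgG, with more than 1 P value cutoff. For their later analyses they kept the peaks that the input and IgG calls shared. The submitters' processing notes name HISAT2 as the mapper, and the build mm10. Which cutoff and which control stand behind each list is not given in the sources used here, and the widths and number of peaks depend on both. The deposited peak lists hold chromosome, start and end in 3 columns per list, with no score, count or fold. The sample titles gave each group and replicate number.

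Coordinates were printed 1-based, and no peak ran beyond a chromosome end of GRCm38, the assembly of mm10. Gene models were from GENCODE M21 (132666 TSS positions). A peak was a promoter peak where its interval lay within 1 kb of a TSS of the gene, and near where it lay within 100 kb of the gene body. Coding sequence was merged over all transcripts of a gene. Sequences were read from GRCm38.p6 and from RefSeq promoters. RE1 (17 bp, at most 2 mismatches), MEF3 (at most 1 mismatch) and 4 exact motifs were searched on both strands. Python 3.11.15, pysam 0.24.0, numpy 2.4.6 and matplotlib 3.10.9 were used. The overlap and motif code was tested on simulated data. The members, gene lists and motifs were chosen with earlier results of these data known. Genes named are the 9 members, the partner and network genes, neighbours at whose TSS a peak within 100 kb lay, where reported, and the 3 genes most like Eya1; 1 further gene of the network list and 1 sequence are not reported here. The Myc and Mycn coding-sequence peaks and the coding-segment lengths were picked out only once the values were known. No test was run, since 1 immunoprecipitated group was available, and alternatives for distances, overlap rules, motif stringency and each replicate are given at the end.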

Additional observations from a re-analysis of the deposited data

How the results depend on the processing

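Of 44 alternative settings over 8 counts or values, 31 stayed within 1.5 times the reported count (or within 1 SD for the width) and 13 did not. Leaving out a replicate in turn gave 2 to 3 genes with a promoter peak, 2 to 3 with a gene-body peak and 3 to 7 with a peak within 100 kb, against 4, 4 and 7, each time lower without replicate 1. The same omission gave 6 to 12 partner and network genes, against 13, and 0 to 8 Eya1 exon peaks, which were all in replicate 1. The median width of the 6 promoter peaks at members, 206.5 bp over both lists, was 167 bp without replicate 1 and 1137 bp without replicate 2. Restricted to peaks no narrower than the median of their own list, 2 genes kept a promoter peak, Six2 and Six5. With promoter peaks left out, 2 genes had a gene-body peak, Eya1 and Six2. Requiring a shared stretch of 50% of both peaks left 0 genes with a promoter peak in both lists, against 1, because the Six5 replicate 2 peaks cover little of the replicate 1 peak. The single RE1 match gave 0 with no mismatch, 0 with at most 1 mismatch, 0 without the Eya1 exon peaks and 0 to 1 when a replicate was left out. The settings that left out Eya1 exon peaks for promoters, both lists and RE1, and the limit of 30 to 90 bp, were chosen after the data were seen. No paired analysis was possible because 1 group has peak lists. With 2 lists of unlike width and no depth, absence of a peak does not show absence of Eya1.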
